A study of Mus musculus with 24 samples.

Results

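The Sox, Pax, Tbx, Lhx and Fox families comprise transcription factors that set cell identity during development. Their members were taken by symbol from the GENCODE vM21 annotation, leaving out a Fox gene that is not reported here. They were protein-coding genes named Sox, Pax, Tbx or Lhx with a number, or Fox with a class letter from a to s and a number. This gave 92 of 21670 protein-coding genes on chromosomes 1 to 19 and X, namely 19 Sox, 9 Pax, 13 Tbx, 8 Lhx and 43 Fox genes. H3K9ac was profiled by ChIPmentation, in which immunoprecipitated chromatin is tagged by a transposase, in spheroids grown from 4T1, a line of mouse mammary carcinoma cells. Each of the 4 groups had 3 replicates collected on day 5: a scramble guide, CPT1a knockout and KAT2a knockout, all with 75 µM palmitate, and CPT1a knockout with 5 mM acetate, for which the labels leave palmitate unstated and the study's legend for this comparison names it. According to the methods, all lines were 4T1 derivatives with doxycycline-inducible Cas9 selected with puromycin, and the control guide targeted EGFP. Each knocked-out gene had a guide in each of a pair of exons, and which of them a given library carried is not stated in the labels. CPT1a brings long-chain fatty acids into mitochondria and KAT2a is a histone acetyltransferase, so the comparisons ask whether their loss, or acetate, changes H3K9ac at these promoters. Nothing in the labels says that replicates came from separate cultures, so the p-values measure the spread between libraries, which may be technical.

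H3K9ac marks the promoters of transcribed genes. Sox proteins bind DNA through an HMG box, Pax proteins through a paired domain, Tbx proteins through a T-box, Lhx proteins through a homeodomain joined to LIM domains, and Fox proteins through a forkhead domain. Many of these genes are silent outside their own lineage and carry CpG-rich promoters held by Polycomb proteins, while some Fox classes, such as the Foxk, Foxo and Foxp factors, are used by many cell types. In epithelia, Sox9 and Sox4 are linked to progenitor states, and Foxc1 and Foxc2 to mesenchymal programmes of breast cancer.

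The lists held 16212 to 34370 peaks and were called at a depth of 0.554 to 2.52, in mean fragments over each base as recovered from the peak scores. The lowest depth was that of CPT1a knockout replicate 3 and the highest that of scramble replicate 1. The 3 scramble lists were the longest, with 29176 to 34370 peaks against 16212 to 24639 in the other 9, and their peaks were narrower, with medians of 585 to 686 bp against 816 to 1147 bp. Between 10801 and 11483 genes had a promoter peak, that is a peak within 1 kb of an annotated coding transcript's start site (TSS). Epithelial identity matched the label, since all 8 epithelial markers examined, among them Epcam, Cdh1 and Krt8, had a promoter peak in all 12 libraries. Of 15 fibroblast, immune and endothelial markers, 13 had none in any library, Cd68 had one in 2 libraries and Pdgfra, a fibroblast marker, in all 12. Cpt1a and Kat2a also had a promoter peak in all 12, which does not check the knockouts, because the guides cut within coding exons. No label names a batch, so a batch effect and a group effect cannot be told apart.

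Promoter sequences of 5 members are shown because they span the range of outcomes described here. They are the 250 bases before a RefSeq transcript start (GRCm38.p6), written 5′ to 3′ on the strand of the gene, with every CpG in capitals, and 63 of the 92 members had an entry in the RefSeq promoter table. Foxc1 (chr13:31806396-31806645, plus strand) had the strongest promoter peak of the family, Lhx6 (chr2:36105409-36105658, minus strand) a weak one that differed between groups, and Foxd2 (chr4:114908899-114909148, minus strand) one whose width differed. Sox13 (chr1:133424213-133424462, minus strand) had a peak in some libraries only, and Sox2 (chr3:34649745-34649994, plus strand) in none.
Foxc1: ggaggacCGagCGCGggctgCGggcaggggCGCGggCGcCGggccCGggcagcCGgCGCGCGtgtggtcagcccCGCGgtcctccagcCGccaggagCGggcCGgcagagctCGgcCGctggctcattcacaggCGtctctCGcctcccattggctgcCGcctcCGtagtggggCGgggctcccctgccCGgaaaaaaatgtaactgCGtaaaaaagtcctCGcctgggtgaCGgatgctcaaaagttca
Foxd2: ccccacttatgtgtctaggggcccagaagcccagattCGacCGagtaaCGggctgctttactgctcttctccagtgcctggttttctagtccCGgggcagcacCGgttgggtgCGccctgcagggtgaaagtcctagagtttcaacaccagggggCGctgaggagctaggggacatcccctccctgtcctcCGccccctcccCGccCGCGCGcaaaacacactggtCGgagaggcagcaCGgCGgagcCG
Lhx6: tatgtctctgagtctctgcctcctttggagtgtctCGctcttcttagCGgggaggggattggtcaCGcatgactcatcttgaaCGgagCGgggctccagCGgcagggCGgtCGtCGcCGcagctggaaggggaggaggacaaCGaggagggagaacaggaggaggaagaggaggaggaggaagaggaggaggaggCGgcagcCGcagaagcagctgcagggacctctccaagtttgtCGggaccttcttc
Sox13: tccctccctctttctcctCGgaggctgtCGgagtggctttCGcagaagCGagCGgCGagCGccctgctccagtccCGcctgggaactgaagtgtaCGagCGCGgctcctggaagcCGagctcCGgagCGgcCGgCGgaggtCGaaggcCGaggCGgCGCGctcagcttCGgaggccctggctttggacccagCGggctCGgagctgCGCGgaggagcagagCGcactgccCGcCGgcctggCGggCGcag
Sox2: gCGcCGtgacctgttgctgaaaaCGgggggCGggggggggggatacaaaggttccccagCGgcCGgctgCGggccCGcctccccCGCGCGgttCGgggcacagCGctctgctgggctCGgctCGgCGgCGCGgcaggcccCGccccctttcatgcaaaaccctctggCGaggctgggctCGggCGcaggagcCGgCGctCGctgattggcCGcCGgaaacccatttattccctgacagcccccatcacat

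These stretches held 29 CpG in Foxc1, 16 in Foxd2, 14 in Lhx6, 31 in Sox13 and 27 in Sox2. Of all 32851 RefSeq promoters, whose median count was 6, 6.78% held as many as Foxc1, 5.19% as many as Sox13 and 8.56% as many as Sox2. The Sox2 stretch, called in no library, was nearly as CpG-rich as that of Foxc1. The RefSeq start of Foxc1 lay in a peak in 5 of the 12 libraries, and in scramble its strongest peak began downstream of that start. The RefSeq start of Sox2 lay in no peak in any of the 12 lists, and the nearest peak was 138056 bp from its TSS in the closest library.

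Most of these genes lacked promoter H3K9ac in 4T1 spheroids. A promoter peak was called in all 12 libraries for 27 of the 92 members (29.3%), in 1 to 11 libraries for 8 and in none for 57 (62.0%). Of the 21497 protein-coding genes outside this and the other regulator sets, again without the Fox gene not reported here, 49.3% were called in all 12 and 45.6% in none. The 39 Hox cluster genes and the 41 genes of the Nkx, Irx, Dlx, Gata, Msx and sine oculis homeobox families were near the members, with 23.1% and 24.4% called in all 12. These shares describe the lists, and no test was made between the sets.

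**Figure D1:**
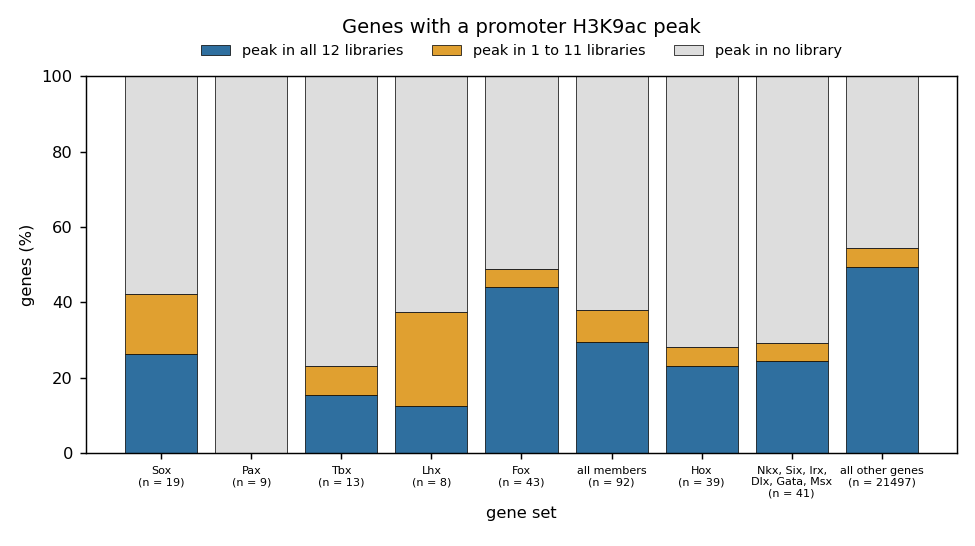
Share of genes (%, vertical axis) with a promoter H3K9ac peak in all 12 libraries, in 1 to 11 or in none, for each family, for all members together, for the Hox and other regulator sets, and for all other protein-coding genes. The Fox family reaches 19 of 43 genes called in all 12 libraries, while none of the 9 Pax genes had a peak in any library.

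Among the Sox genes, 5 of 19 were called in all 12 libraries and 11 in none. The always-called genes were Sox4 and Sox12 of the SoxC group, Sox5 of SoxD, Sox9 of SoxE, and Sox15, which is expressed in stem cells and muscle precursors. Each of these groups was split, because Sox11 (SoxC), Sox6 (SoxD) and Sox10 (SoxE, a neural crest and myoepithelial factor) were called in none. The SoxB1 genes Sox1, Sox2 and Sox3, which maintain stem cell and neural precursor states, and the SoxF genes Sox7, Sox17 and Sox18, which act in endothelium, had no promoter peak in any library. Sox14 and Sox30 had none either, and Sox8, Sox13 and Sox21 were called in some libraries.

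The Pax genes were the least marked. All 9, including Pax2 and Pax8 of kidney, Pax6 of eye and pancreas, Pax5 of B cells and Pax9 of pharyngeal tissue, were called in no library. Of 13 Tbx genes, only Tbx1, a pharyngeal regulator, and Tbx15, a mesenchymal and skeletal regulator, were called in all 12, and Tbx2 was called in 6. Tbx3, the close relative of Tbx2 that acts in the mammary bud, had no promoter peak in any list, and its nearest peak in the closest library was 424295 bp away. Tbx4, Tbx5, Tbx6, Tbx10, Tbx18, Tbx19, Tbx20, Tbx21 and Tbx22 were also called in none. Of 8 Lhx genes, Lhx6 was called in all 12 and its paralogue Lhx8 in none, Lhx2 and Lhx4 were called in 2 libraries each, and Lhx1, Lhx3, Lhx5 and Lhx9 in none.

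The Fox genes divided by class. In classes J, K, M, N, O and P, 14 of 18 genes were called in all 12 libraries: Foxj1, Foxj2, Foxj3, Foxk1, Foxk2, Foxm1, Foxn2, Foxn3, Foxo1, Foxo3, Foxo4, Foxp1, Foxp3 and Foxp4. Foxm1 drives mitotic genes, the Foxo factors respond to insulin signalling, and Foxk1 and Foxk2 act in growth and metabolism. The 4 genes of these classes without a peak were Foxn1, the thymic epithelial factor, Foxn4, Foxo6 and Foxp2. In the other classes, 5 of the 25 members were called in all 12, namely Foxa3, Foxc1, Foxc2, Foxd2 and Foxf1. Foxh1 and Foxl1 were called in some libraries, and 18 in none, among them Foxa2, Foxd1, Foxd3, Foxe1, Foxe3, Foxf2, Foxi1, Foxl2, Foxq1 and Foxs1. This split of the classes was chosen after the calls were seen.

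Neighbouring Fox genes differed as well. On chromosome 8, Foxf1, Foxc2 and Foxl1 lie within 43554 bp, and they were called in 12, 12 and 10 libraries. On chromosome 13, Foxc1 was called in all 12, whereas Foxf2, 180817 bp away, and Foxq1, 250499 bp away, were called in none. Foxd2 was called in all 12 and Foxe3, 17140 bp from it, in none.

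Part of the calls rested on peaks shared with another gene. The TSS of Foxm1 lies 99 bp from that of Rhno1, and its strongest promoter peak held the Rhno1 TSS in all 12 libraries. The strongest peak of Foxp3, the regulatory T-cell factor, held the TSS of Ppp1r3f, 604 bp away, in 10 libraries. That of Foxa3 held the TSS of Sympk, 839 bp away, in 9, and no library had a peak within 500 bp of the Foxa3 TSS. That of Foxj3 held the Frg2f1 TSS, 892 bp away, in 3. The immune markers Cd3e and Ptprc had no promoter peak in any list. Where a peak holds both start sites, its H3K9ac cannot be assigned to one of the paired genes.

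Of the 57 members never called, 46 had no peak within 10 kb of a TSS in any library, and their nearest peaks lay at a median of 80810 bp over all 57. Lhx1, Lhx9, Sox18, Tbx6 and Tbx10 had a peak within 10 kb in all 12 libraries, and Foxn4, Foxo6, Foxq1, Lhx5, Sox6 and Sox7 in some. The nearest peak to Foxq1, an epithelial factor, lay 1581 bp from its TSS in the closest library, and 7 libraries had a peak within the gene. Sox6 came closest to the window, with 1 library holding a peak 1055 bp from a TSS.

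Never-called members were nearly as GC-rich and CpG-rich as called ones. Their promoter windows had a median GC content of 55.9% and a median observed over expected CpG ratio of 0.60, against 58.3% and 0.67 for those called in all 12. Other protein-coding genes that were never called had medians of 46.6% and 0.22. Among genes whose CpG ratio was at least 0.6, 17 of 48 members (35.4%) were called in all 12 libraries, against 4500 of 5428 other genes (82.9%). With GC content of at least 55%, the shares were 15 of 57 (26.3%) and 3255 of 4889 (66.6%). Both limits were chosen after the calls were seen, and the shares are given with no test.

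**Figure D2:**
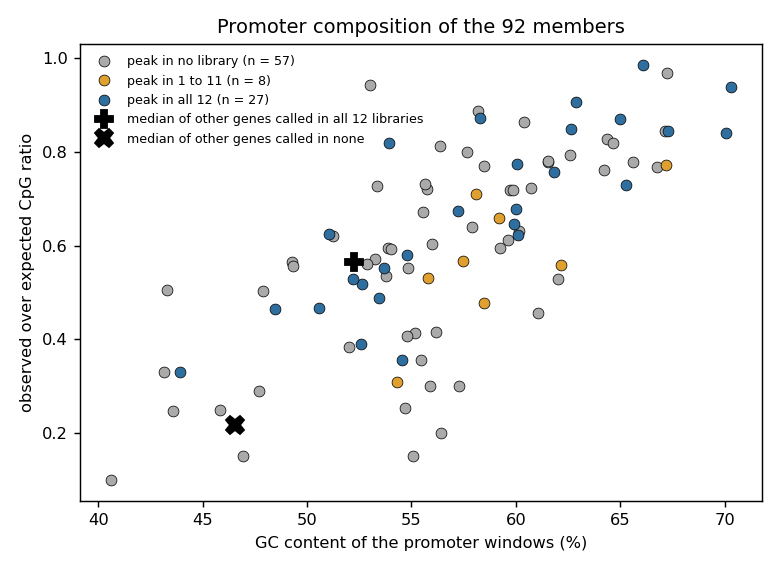
GC content (%, horizontal axis) against the observed over expected CpG ratio of the promoter windows of the 92 members, coloured by the number of libraries with a peak. The crosses mark the medians of other protein-coding genes, and never-called members lie mostly to the right of and above the median of other never-called genes.

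The genes known to work with these families were examined as a further list of 18 relatives and cofactors. The T-box genes T and Tbr1 the LIM homeobox genes Isl1, Lmx1a and Lmx1b, and the cofactors Ldb2 and Lmo3 had no promoter peak in any library. Eomes had one in 3, and Isl2 and Lmo2 in 10 each. The LIM cofactor Ldb1, the LIM-only genes Lmo1 and Lmo4, the MAX partner Mga and the Groucho corepressors Tle1, Tle2, Tle3 and Tle4 were called in all 12. In all, 8 of 18 were called in every library, 3 in some and 7 in none.

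The 27 members called in every library were ranked by fold enrichment within each library, as percentiles over the 10637 genes that every library called (100 is the strongest). Their mean ranks ran from 2.34 to 95.1 with a median of 44.2, and 12 of 27 lay above 50. Foxc1 was highest at 95.1, followed by Foxj2 at 84.6, Sox9 at 81.8, Tbx15 at 79.7 and Sox4 at 79.4. The next were Foxm1 at 77.0, Foxp4 at 76.0, Foxn2 at 74.5, Foxk2 at 71.6 and Foxj3 at 64.2. The lowest were Foxj1, the regulator of motile cilia, at 2.34, Sox12 at 4.55, Tbx1 at 7.14, Sox15 at 8.41 and Foxo4 at 11.4. Foxo1 and Foxo3, which are related forkhead factors of the insulin pathway, differed in mean rank, at 23.5 and 48.6.

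Some of these peaks were broad. The strongest promoter peak of Foxc1 (gene body chr13:31806633-31812476, GRCm38) had a mean width of 9006 bp, wider than 99.7% of the genes called in all 12, whose median was 2154 bp. Sox5 at 6335 bp and Foxc2 at 6280 bp were above the 99th percentile, and Sox4 at 3972 bp, Sox9 at 3783 bp and Foxp1 at 3701 bp above the 90th. Foxc1 ranked between 93.2 and 100.0 in 11 libraries, and CPT1a knockout replicate 3, the shallowest list, gave 55.7. The mean ranks of Foxc2 and Sox5 over all libraries were 33.1 and 20.9, and their values in scramble were higher (79.0 and 61.5).

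**Figure D3:**
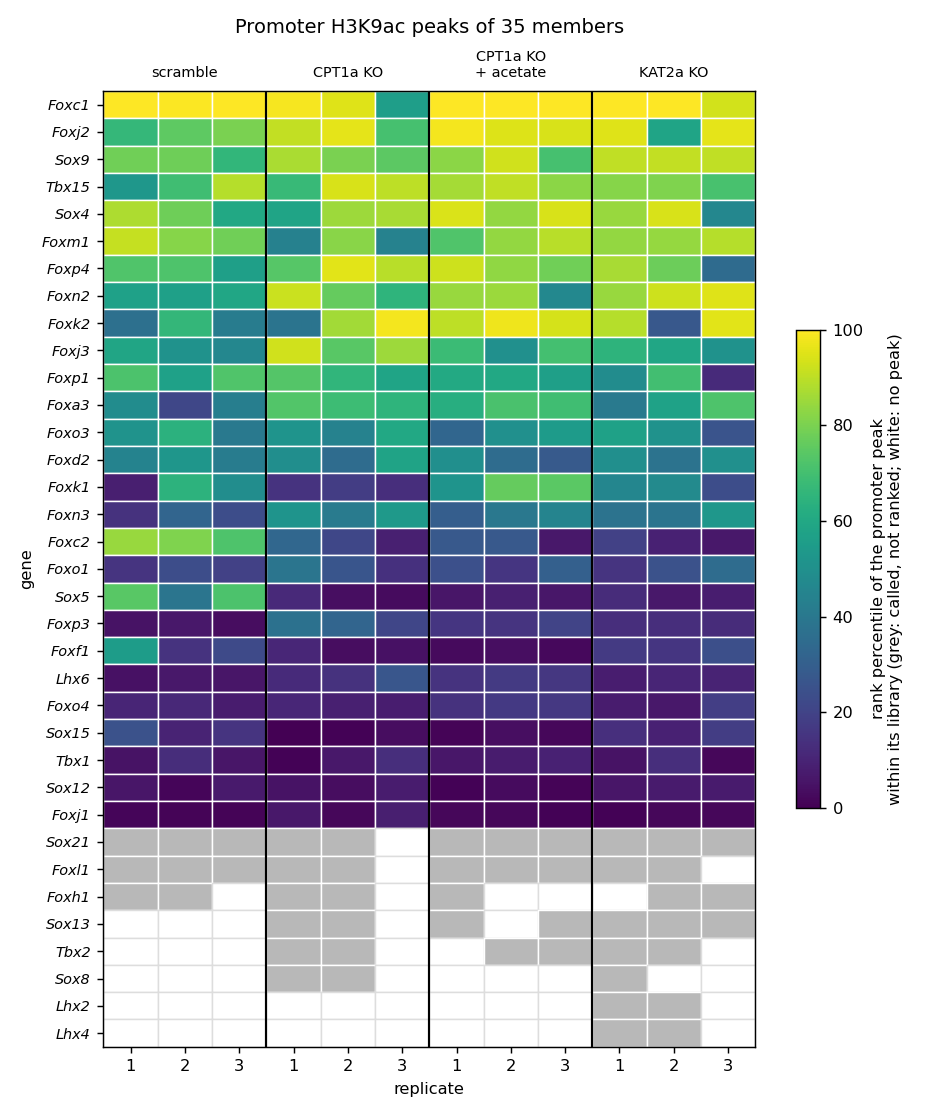
Promoter peaks of the 35 members called in at least 1 library (rows) in the 12 libraries (columns, replicates 1 to 3 of each group). Colour gives the rank percentile within the library for the 27 members called in all 12, grey marks a called member that was not ranked, and white marks no peak. Foxc2 and Sox5 rank higher in the 3 scramble libraries than in the other 9, and Sox13 is white in all 3 scramble libraries.

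The number of members with a promoter peak was compared between groups first. The scramble libraries had 30, 30 and 29, the CPT1a knockout libraries 33, 33 and 27, those with acetate 31, 30 and 31, and the KAT2a knockout libraries 34, 34 and 30. The means were 29.7 ± 0.577, 31.0 ± 3.46, 30.7 ± 0.577 and 32.7 ± 2.31 (SD, n = 3), and each of the other groups overlapped scramble. Two-sided exact permutation tests gave p = 0.6 for CPT1a knockout and p = 0.3 for KAT2a knockout against scramble, p = 1 for acetate against CPT1a knockout and p = 0.3 for acetate against scramble. The smallest p that 3 libraries against 3 allow is 0.1, and the adjusted values over the 4 comparisons were 0.8, 0.6, 1 and 0.6. Scramble against the other 9 libraries gave a difference of -1.78 members (exact permutation p = 0.3, 220 assignments). With all lists brought to equal calling depth, the scramble libraries had 26 to 27 members, the CPT1a knockout libraries 27 to 32, those with acetate 28 to 29 and the KAT2a knockout libraries 30 to 32. The difference between scramble and the rest was then -3.11 (exact permutation p = 0.0273), and with the lists cut to equal length it was -3 (exact permutation p = 0.0455). The scramble lists then also held fewer genes as a whole, with 10280 to 10456 called at equal depth against 10790 to 11128 in the other 9. Per 100 genes called, the difference in members was -0.0148 at equal depth (exact permutation p = 0.0864) and -0.0174 at equal length (exact permutation p = 0.0682), so neither passed relative to all genes.

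Of the 8 members called in some libraries, Sox13, a SoxD factor, was the 1 member called in 3 of 3 KAT2a knockout libraries and 0 of 3 scramble libraries. It was also called in CPT1a knockout replicates 1 and 2 and in acetate replicates 1 and 3. Its peaks were low, with fold enrichments of 5.16, 8.04 and 7.10 in KAT2a knockout, 6.78 and 6.82 in CPT1a knockout, and 3.23 and 5.54 with acetate. In KAT2a knockout against scramble, 1.32% of the 11743 genes with a promoter peak in any library were called only in the knockout in this way, and 0.102% only in scramble, against 1 and 0 of 35 members. For CPT1a knockout against scramble the shares were 0.255% and 0.196%, for acetate against scramble 0.4% and 0.255%, and for acetate against CPT1a knockout 0.00852% each way, with 0 members in each. Without CPT1a knockout replicate 3, Sox8, Sox13 and Tbx2 were called in both remaining CPT1a knockout libraries and in no scramble library, as were 1.28% of all genes. Without KAT2a knockout replicate 3, Lhx2, Lhx4 and Tbx2 joined Sox13, against 1.91% of all genes.

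Most of the other variable members also had low peaks. Tbx2 was called in 2 CPT1a knockout, 2 acetate and 2 KAT2a knockout libraries, with fold enrichments of 3.22 to 7.17, and in no scramble library. Sox8 had 3.76 and 4.38 in CPT1a knockout replicates 1 and 2 and 3.88 in KAT2a knockout replicate 1. Lhx2, with 5.46 and 5.94, and Lhx4, with 4.37 and 5.15, were called in KAT2a knockout replicates 1 and 2 only. Sox21, a SoxB2 gene, was missing in CPT1a knockout replicate 3 alone and ranged from 4.11 to 13.4, with its 3 KAT2a knockout values at 9.98, 13.4 and 7.72. At equal calling depth, Lhx2, Lhx4 and Sox8 were called in no library, Tbx2 in 3 and Sox13 and Sox21 in 4 each. Foxl1, a gut mesenchyme factor, was called in 10 libraries, and its fold enrichment reached 25.7 in KAT2a knockout replicate 2. Only 1 library had a Foxl1 summit inside the window, and the median distance from summit to TSS was 1909 bp. These calls thus rest mostly on peaks centred outside the promoter window. Foxh1, which partners Smad proteins in Nodal signalling, was called in 7 libraries, and in the pair with the highest values, 26.6 in CPT1a knockout replicate 2 and 21.5 in KAT2a knockout replicate 2, the peak held the TSS of Ppp1r16a. No library had a peak within 500 bp of the Foxh1 TSS or a summit in its window.

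Ranks were then compared with limma across the 10637 genes, with Benjamini-Hochberg adjustment over all of them at 0.05. In CPT1a knockout against scramble, 2 of 27 members were higher (Foxp3 and Lhx6) and 4 lower (Foxc2, Foxf1, Sox5 and Sox15), against 4.8% and 5.24% of all genes. In KAT2a knockout against scramble, none was higher and 2 were lower (Foxc2 and Sox5), against 1.69% and 2.68%. In acetate against scramble, none was higher and 4 were lower (Foxc2, Foxf1, Sox5 and Sox15), against 1.64% and 3.83%. The median difference over the members was 1.68, 1.03 and 6.08 percentage points, against 0.18, 0.12 and 0.15 over all genes. With the GC trend of each library removed, the members' medians were -5.16, -5.07 and 1.63, against -0.32, -0.39 and -0.18 over all genes, and 1 member was higher and 7 lower in CPT1a knockout, against 4.27% and 3.95% of all genes. The direction of the members' median thus flips with this scaling in both knockouts. These 3 comparisons share the scramble libraries, so the recurring names are not independent.

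Foxc2 (chr8:121116171-121118895, plus strand), a regulator of lymphatic and mesenchymal development, ranked high in scramble and low elsewhere. Its ranks were 84.4, 80.6 and 72.1 in scramble, 33.1, 21.2 and 8.97 in CPT1a knockout, 27.7, 27.3 and 6.501 with acetate, and 19.2, 9.37 and 6.44 in KAT2a knockout. All 3 scramble values lay above the other 9. The differences from scramble were -57.9 ± 8.51 points in CPT1a knockout (SE, adjusted p = 0.00174, limma), -67.4 ± 8.51 in KAT2a knockout (adjusted p = 0.00159) and -58.5 ± 8.51 with acetate (adjusted p = 0.00228). The deposited fold enrichment, which is not scaled between libraries, was 27.0, 27.0 and 24.5 in scramble and 9.29 to 22.7 in the other 9 libraries. The summit lay 1697 to 3943 bp from the TSS, so the ranked value belongs to a domain that reaches the promoter window and peaks outside it.

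Sox5 (chr6:143828425-144781977, minus strand), a SoxD factor of cartilage and neurons, showed the same contrast. Its ranks were 74.0, 38.8 and 71.7 in scramble, 11.7, 3.88 and 2.85 in CPT1a knockout, 5.84, 8.71 and 6.21 with acetate, and 12.3, 6.40 and 8.02 in KAT2a knockout. Again no scramble library overlapped the other 9. The differences were -55.4 ± 7.26 points in CPT1a knockout (SE, adjusted p = 0.00109, limma), -52.6 ± 7.26 in KAT2a knockout (adjusted p = 0.00190) and -54.6 ± 7.26 with acetate (adjusted p = 0.00166). The deposited fold enrichment, again not scaled between libraries, was 23.9, 17.03 and 24.3 in scramble and 6.54 to 16.8 elsewhere. The peak lay at start sites inside the annotated gene, not at its 5′ end, and in scramble its widths were 13369, 9448 and 9650 bp. For both Foxc2 and Sox5, the KAT2a knockout call was lost when the fit held only the 2 groups compared (limma, adjusted p = 0.0629 each), and every other alternative kept the calls of both genes.

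Foxf1, a mesenchymal factor that lies beside Foxc2, and Sox15 were lower in CPT1a knockout with and without acetate. Foxf1 ranked at 54.8, 14.6 and 22.4 in scramble, 10.6, 3.21 and 4.48 in CPT1a knockout, 2.36, 3.58 and 2.24 with acetate, and 16.96, 15.5 and 23.9 in KAT2a knockout. The wide scramble range came from replicate 1, and the KAT2a knockout values fell within it. The differences were -24.5 ± 7.19 in CPT1a knockout (SE, adjusted p = 0.0430, limma) and -27.9 ± 7.19 with acetate (adjusted p = 0.0380). Without scramble replicate 1 the former was -12.4 (limma, adjusted p = 0.0727) and the latter -15.7. Its call in CPT1a knockout was lost in 6 of 13 alternatives, and that with acetate in 4 of 13. No peak reached the Foxf1 TSS in any library, the closest being 60 bp away. A summit lay in the Foxf1 window in 7 of the 12 libraries. Sox15 ranked at 25.3, 9.49 and 15.1 in scramble, 0.108, 0.724 and 3.43 in CPT1a knockout, 0.808, 3.76 and 1.91 with acetate, and 13.5, 8.99 and 17.7 in KAT2a knockout. Its differences were -15.2 ± 3.53 in CPT1a knockout (SE, limma adjusted p = 0.0163) and -14.5 ± 3.53 with acetate (adjusted p = 0.0297). The former was lost in 2 of 14 alternatives and the latter in 7 of 14.

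Foxp3 and Lhx6 moved the other way. Foxp3 ranked at 5.00, 6.40 and 3.35 in scramble, 37.3, 32.1 and 21.01 in CPT1a knockout, 15.5, 14.9 and 20.0 with acetate, and 13.1, 13.2 and 12.2 in KAT2a knockout, with scramble below all others. The difference in CPT1a knockout was 25.2 ± 4.13 points (SE, adjusted p = 0.00330, limma), and all 14 alternatives kept the call. Those in KAT2a knockout, 7.93 ± 4.13 (adjusted p = 0.289), and with acetate, 11.9 ± 4.13 (adjusted p = 0.106), did not pass in limma. The peak held the Ppp1r3f TSS in all 9 of those libraries and in scramble replicate 1. Lhx6, a regulator of interneuron and tooth development, ranked at 4.32, 6.56 and 5.59 in scramble, 11.996, 14.3 and 26.6 in CPT1a knockout, 14.6, 16.99 and 15.8 with acetate, and 8.13, 10.2 and 9.73 in KAT2a knockout. Its difference in CPT1a knockout was 12.1 ± 3.54 (limma, adjusted p = 0.0418), which 7 of 14 alternatives lost, and without CPT1a knockout replicate 3 it was 7.63 (adjusted p = 0.112). Here the peak sat on the TSS, whose start shown above lay inside it in all 12 libraries.

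**Figure D4:**
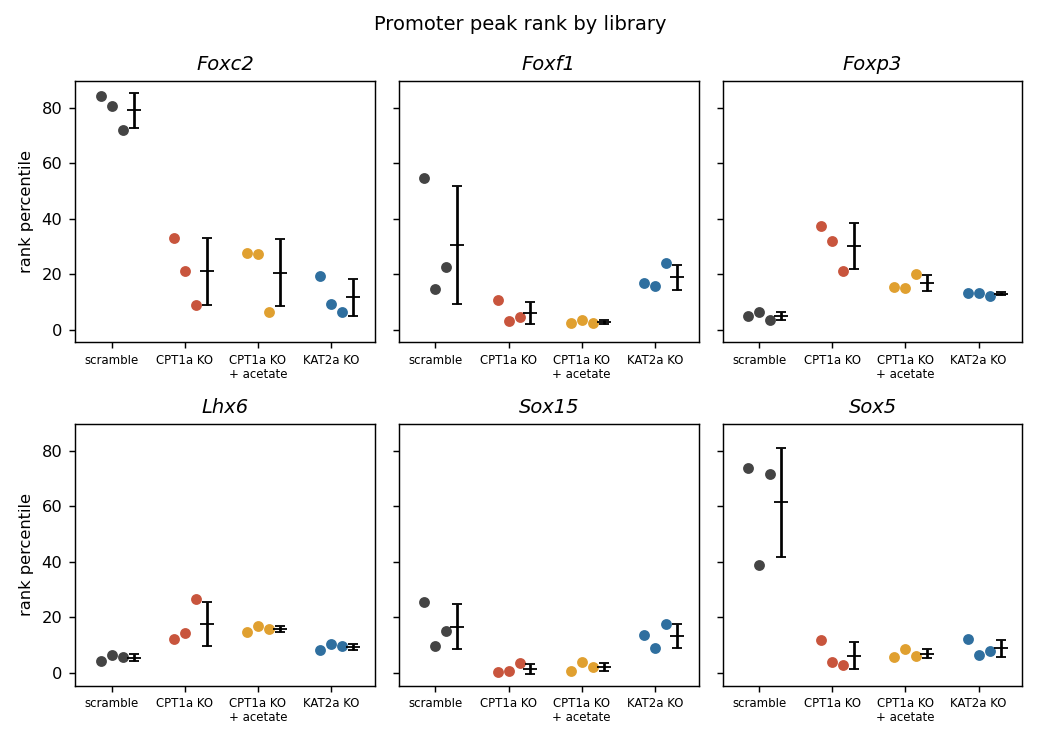
Rank percentile of the strongest promoter peak within its library (vertical axis) for the 6 members that passed the rank test in any comparison, with 1 point per library and the mean ± SD (n = 3) of each group beside the points. Foxc2 and Sox5 go from group means of 79.0 and 61.5 in scramble to 21.1 and 6.13 in CPT1a knockout, and Foxp3 goes from 4.92 to 30.2.

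The strongest promoters of the families did not pass the rank test in any comparison. Foxc1 differed from scramble by -16.4 ± 8.46 points in CPT1a knockout (SE, adjusted p = 0.227, limma; -2.70 without CPT1a knockout replicate 3), -2.04 ± 8.46 in KAT2a knockout (adjusted p = 0.921) and 0.24 ± 8.46 with acetate (adjusted p = 0.990). For Sox9 these differences were 6.57 ± 7.66, 16.5 ± 7.66 and 7.89 ± 7.66 (SE, adjusted p of 0.621, 0.234 and 0.587), and for Sox4 1.68 ± 11.96, -0.28 ± 11.96 and 15.4 ± 11.96 (adjusted p of 0.943, 0.993 and 0.481). Foxj3 came closest to the threshold, at 32.2 ± 9.92 in CPT1a knockout (limma, adjusted p = 0.0521), followed by Foxn3 at 25.7 (adjusted p = 0.0734) and Foxa3 at 31.6 (adjusted p = 0.0807). Ranks by -log10 p gave more calls among all genes and among the members. In CPT1a knockout 10 members were higher and 5 lower, against 15.9% and 16.2% of all genes. In KAT2a knockout 3 were higher and 2 lower, against 10% and 11.5%, and with acetate 8 and 4, against 11.1% and 12.7%.

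Acetate made no called difference in rank. Against CPT1a knockout without acetate, none of the 27 members passed in limma, where 0.0282% of all genes were higher and 0.0188% lower. An unadjusted limma p under 0.05 was found for 5 members, against 956 of all 10637 genes. The largest difference was that of Foxk1, which ranked at 14.7, 17.9 and 12.9 in CPT1a knockout and 51.6, 76.2 and 74.5 with acetate. This difference was 52.3 ± 12.8 points (SE, limma adjusted p = 0.243), and the scramble libraries spread over 8.56, 64.1 and 48.5. Foxc2 and Sox5 differed by -0.57 ± 8.51 and 0.79 ± 7.26 points, and Foxp3 by -13.4 ± 4.13, which did not pass.

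Peak width was compared in the same way on the log2 scale. In CPT1a knockout against scramble, 4 members were wider (Foxd2, Foxn3, Foxo3 and Foxp3) and 3 narrower (Foxj2, Sox5 and Sox15), against 1.42% and 25.4% of all genes. In KAT2a knockout against scramble, Foxd2 was wider and none was narrower, against 1.03% and 2.98%. In acetate against scramble, none passed either way in limma, against 0.808% and 6.34% of all genes. There, 6 members had an unadjusted limma p under 0.05, against 3081 of all 10637 genes. In acetate against CPT1a knockout, 0% of genes passed in either direction. An unadjusted limma p under 0.05 was found for 2 members there, against 239 of all 10637 genes. The median log2 difference over the members was -0.20 in CPT1a knockout, 0.10 in KAT2a knockout and -0.10 with acetate, against -0.38, -0.16 and -0.26 over all genes. With the widths centred in each library, which removes this shift, 5 members were wider and 2 narrower in CPT1a knockout against scramble, beside 7.5% and 7.38% of all genes. In KAT2a knockout 4 were wider and 1 narrower, beside 6.15% and 6.07%, and with acetate 5 and 0, beside 5.54% and 4.52%.

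Foxd2, a mesenchymal forkhead gene, had the 1 width called in both knockouts. Its widths were 1107, 966 and 849 bp in scramble, 1630, 1740 and 1139 bp in CPT1a knockout, 1217, 1288 and 1314 bp with acetate, and 1771, 1925 and 1592 bp in KAT2a knockout. All scramble peaks were narrower than the others. The log2 difference was 0.61 ± 0.20 in CPT1a knockout (SE, adjusted p = 0.0419, limma) and 0.86 ± 0.20 in KAT2a knockout (adjusted p = 0.0410), or 1.53-fold and 1.81-fold. The peak lay upstream of the start in the scramble libraries, and the RefSeq start shown above lay inside it in 5 libraries, none of them scramble. The call in KAT2a knockout was lost in 6 of 13 alternatives (limma, adjusted p up to 0.133), and that in CPT1a knockout in 7 of 13. Among the former were the fits without scramble replicate 3, without any 1 of the KAT2a knockout replicates, and with the replicate block.

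At the other wider peaks, the scramble lists held several peaks close together. Foxo3 had widths of 2333, 790 and 1119 bp in scramble and 3471, 3504 and 2105 bp in CPT1a knockout, which overlapped, with a log2 difference of 1.21 ± 0.36 (SE, adjusted p = 0.0298, limma). With peaks less than 500 bp apart merged, its scramble widths were 4593, 2239 and 2167 bp and its CPT1a knockout widths 3471, 3504 and 3101 bp. Foxn3 went from 1936, 874 and 793 bp to 2688, 2737 and 1597 bp, and from 2996, 2628 and 2774 bp to 2688, 2737 and 2276 bp when merged. Foxp3 went from 1039, 779 and 434 bp to 2069, 2180 and 1260 bp, and its scramble promoter held 2, 2 and 3 peaks against 1 in each CPT1a knockout library. The log2 differences after merging were 0.25 for Foxo3, 0.22 for Foxp3, 0.32 for Foxd2 and -0.13 for Foxn3, none of which passed, and 14 members were then narrower and 0 wider in CPT1a knockout, against 72.6% and 0.63% of all genes. Over the 13 alternatives, the width call in CPT1a knockout was lost in 7 for Foxo3 and in 6 for Foxp3. That of Foxn3 was lost in 6 and reversed in 1.

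The narrower peaks were those of Foxj2, Sox15 and Sox5. Foxj2, a forkhead gene active in many tissues, had 4058, 3039 and 3808 bp in scramble, 2188, 1793 and 1553 bp in CPT1a knockout, 2284, 1937 and 2795 bp with acetate, and 2495, 2548 and 1844 bp in KAT2a knockout. All scramble peaks were wider, by a log2 difference of -0.98 ± 0.21 in CPT1a knockout against scramble (SE, adjusted p = 0.00844, limma), which is 0.506 of the scramble width. Sox15 had 3420, 2102 and 1645 bp in scramble against 530, 1609 and 647 bp in CPT1a knockout (-1.47 ± 0.38, limma adjusted p = 0.0169), a call lost in 5 of 13 alternatives. Sox5 had 2835, 7219 and 774 bp in CPT1a knockout (-2.09 ± 0.71, adjusted p = 0.0482), and without replicate 3 of that group the difference was -1.24 (limma, adjusted p = 0.194). This call held in 2 of 13 alternatives, and the covered length of the window gave 0.35. The rank of Foxj2 differed by 11.9 points, which did not pass, and its width call was lost in 2 of 13 alternatives.

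**Figure D5:**
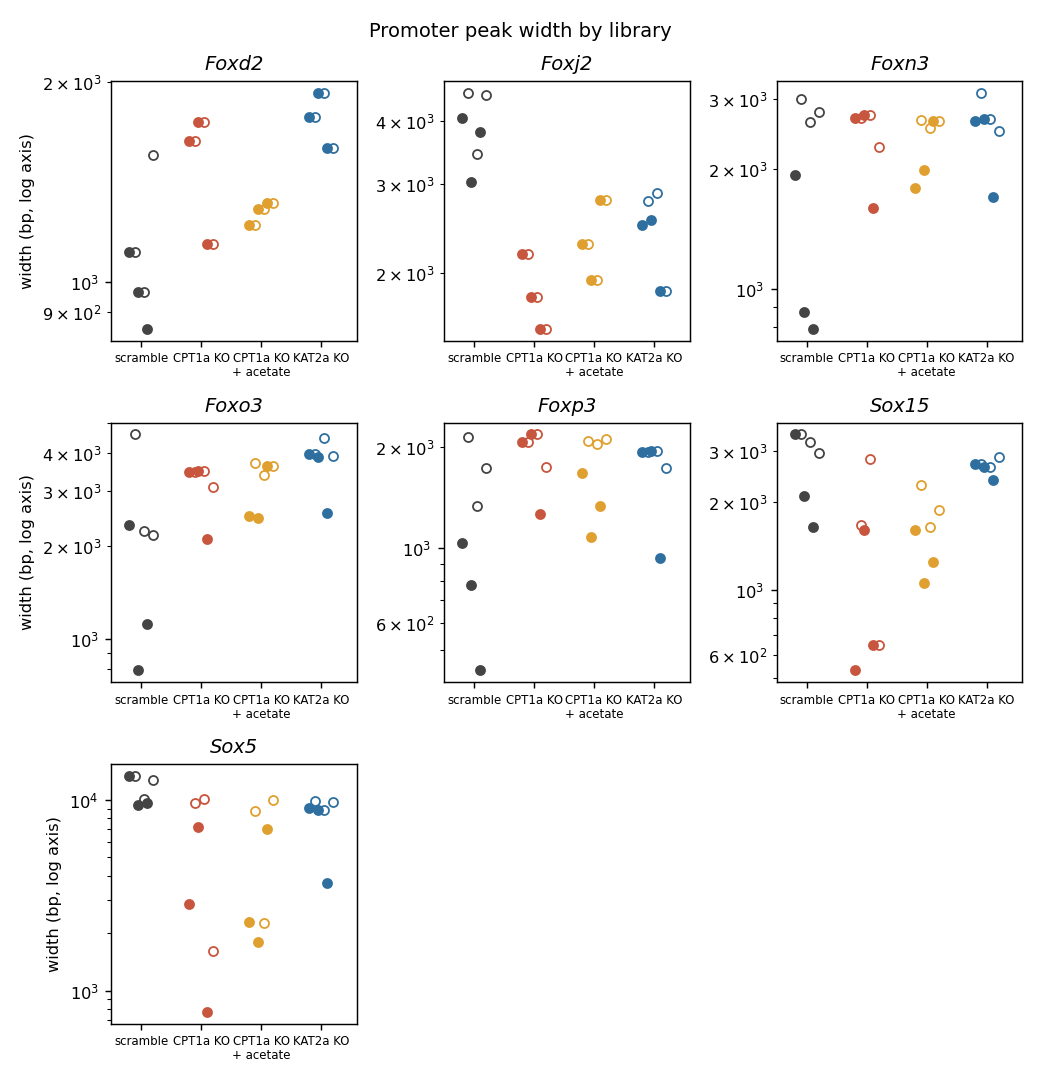
Width in bp (log axis) of the strongest promoter peak of the 7 members that passed the width test in any comparison, with 1 filled point per library and an open point for the width after merging peaks less than 500 bp apart. For Foxn3, Foxo3 and Foxp3 the open scramble points lie well above the filled ones, while for Foxj2 both kinds of scramble points lie above all other libraries.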

How the data were processed

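H3K9ac ChIPmentation peak lists of 12 libraries were analysed, and the 12 inputs were not analysed here. Per the methods, the authors trimmed reads with fastq-mcf and aligned them with BWA to mm10, while the submitters' processing notes name Bowtie2, SAMtools, deepTools and MACS2 without versions and the builds mm10 and dm6. The deposited lists were called per library, not pooled, and the Drosophila spike-in was not used here, so total H3K9ac was not measured. Each list as deposited holds the fold enrichment over background, as a ratio, of every peak. The deposited lists also hold the −log10 p and −log10 q of each peak (smallest −log10 q 2.00), its score and its summit position.

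A promoter peak overlapped the 1000 bp on either side of a TSS of GENCODE vM21 (GRCm38). Fold enrichment was tested only as a rank within a library, since it was not scaled between libraries, and its raw values are given as description. Ranks and log2 widths were fitted with limma 3.58.1 (R 4.3.3; lmFit, eBayes with trend, 4 groups in 1 fit), with Benjamini-Hochberg adjustment over all 10637 genes at 0.05. Counts of members were compared by two-sided exact permutation tests (Python 3.11.15, numpy 2.4.6, pandas 2.3.3, scipy 1.17.1). The limma step and the recovery of calling depth from fold enrichment and −log10 p were tested on simulated data. That recovery leaves out depths on the regular grid of local background levels. It therefore cannot show whether the true depth of a list lay there. Peak scores set the precision here, and a shallow list can miss low peaks.

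Genes are named if all 3 libraries of a group called them and none of another did, past the threshold for rank or width, among the 10 highest or 5 lowest mean ranks, on a fixed list, or never called. The members and lists were chosen with earlier results of these data known. Some Fox genes are not reported here by name. Alternatives covered the promoter window, the ranked score, GC, merged peaks, depth, the groups in the fit, the replicate block and each library left out. The 3-of-3 alternatives, the members per 100 genes called at equal depth or length, and the use of the TSS of any transcript were chosen after seeing the data.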

Additional observations from a re-analysis of the deposited data

How the results depend on the processing

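Leaving out 1 library at a time, the difference in members called ranged from 0.333 to 3.33 for CPT1a knockout against scramble, 2.33 to 4.33 for KAT2a knockout, 0.667 to 1.33 for acetate against scramble, and -2.33 to 0.667 for acetate against CPT1a knockout, where the sign turned without CPT1a knockout replicate 1 or 2. With the summit required in the window, the latter was also 0.667. Scramble against the rest ranged from -2.33 to -1.44, and was -3.11 at equal depth (exact permutation p = 0.0273) and -3 at equal list length (exact permutation p = 0.0455), which per 100 genes called gave -0.0148 (exact permutation p = 0.0864) and -0.0174 (exact permutation p = 0.0682). Members called in 3 of 3 against 0 of 3 ranged from 0 to 3 for CPT1a knockout, 1 to 4 for KAT2a knockout, 0 to 1 for acetate against scramble and 0 to 1 for acetate against CPT1a knockout. At equal depth these counts against scramble were 1 (Foxj1), 3 (Foxj1, Sox13 and Sox21) and 1 (Foxj1) for CPT1a knockout, KAT2a knockout and acetate, and at equal length 2 (Sox13 and Sox21) for KAT2a knockout. The share of all genes called in this way is not given for these settings. Scramble there also held fewer called genes as a whole, so these counts are not read as particular to the members. Changed ranks against scramble ranged from 3 to 7, 2 to 2 and 2 to 4 members, with 3 without scramble replicate 1 and 2 without any 1 acetate replicate. Ranks by −log10 p gave 15, 5 and 12, and fits of only the 2 groups compared gave 3 for CPT1a knockout and 0 for KAT2a knockout. Changed widths ranged from 1 to 5, 0 to 3 and 0 to 3 members. Merging gave 14, 6 and 7, against 7792, 4796 and 5327 of all 10637 genes, and covered length 4, 3 and 2, against 1255, 273 and 381. Centring gave 5 for KAT2a knockout and 5 for acetate, against 1300 and 1070. Fits of only the 2 groups compared gave 0 for both knockouts, against 293 genes in CPT1a knockout and 18 in KAT2a knockout. Foxn3 turned to -0.13 on merging and Sox5 to 0.35 by covered length. The causes were not tested. Replicate numbers share only a number, since the deviations of same-numbered samples correlated at -0.24 to 0.13. With the replicate block, Foxd2 in KAT2a knockout (limma, adjusted p = 0.0611) and Sox5 width in CPT1a knockout (adjusted p = 0.0596) were lost, leaving 0 and 6 changed widths, and the rank counts stayed at 6, 2, 0 and 4. Over all alternatives, 196 summary values kept their result, 40 moved, 3 reversed and 2 came past the threshold. Of the values of single genes, 191 kept theirs, 77 lost the threshold and 2 reversed. Libraries of low depth limit calls of low peaks.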
